A study of Mus musculus with 20 samples.

Results

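A set of 10 genes that hold oocytes in meiotic arrest, or release them from it, was followed around birth in mouse ovaries lacking Figla or Lhx8, which encode a bHLH and a LIM homeobox transcription factor of oocytes. The genes were taken by symbol for their roles in cyclic nucleotide signalling and cell cycle arrest, by a rule that sets no threshold on measured values, and all 10 were found among the 49585 genes counted. They are Gpr3, Gpr12, Npr2, Nppc, Adcy3, Pde3a, Cdc25b, Wee2, Mos and Ccnb3. RNA-seq libraries came from whole ovaries of B6D2F1 mice. The Figla set held 4 Figla-/- and 4 Figla+/- libraries at embryonic day 18.5 (E18.5) and 3 Figla-/- and 3 Figla+/- libraries on the day of birth (postnatal day 0, P0). The Lhx8 set held 3 Lhx8-/- and 3 control libraries at P0, where the genotype field calls the controls Lhx8+/- and the library names call them wild type. The labels give no deleted region and do not say how many animals made up a library.

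In the oocyte, cAMP made by adenylyl cyclase keeps the kinase CDK1 inactive and so holds meiosis in prophase. A constitutively active receptor coupled to the G protein Gs keeps that cyclase on, while cGMP made by the somatic cells around the oocyte passes into it and blocks the phosphodiesterase that would break cAMP down. When arrest ends, CDK1 is freed of its inhibitory phosphate, and the MOS kinase pathway later holds the egg at metaphase II. Oocytes enter the prophase arrest around birth, when most of this machinery is not yet in use.

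The total count ranged from 5583392 to 13408022 in the 14 Figla libraries and from 8297204 to 9978350 in the 6 Lhx8 libraries. A gene with no count in a library could still stand at up to 0.224 to 0.537 CPM (read counts scaled to a common library total) in the Figla libraries, the level of 3 counts, and at up to 0.301 to 0.362 CPM in the Lhx8 libraries. These floors, and the intervals given for ratios, cover counting error only. Groups here follow the library names, and the sample titles name the opposite genotype in 6 of the 14 Figla libraries and in 6 of 6 in the Lhx8 set. Figla stood at 0.722 to 1.56 CPM in E18.5 knockouts against 3.94 to 27.2 in controls, and at 0.175 to 0.647 in P0 knockouts against 32.5 to 39.5 in controls. Lhx8 stood at 18.1 to 31.0 CPM in Lhx8 knockouts against 89.4 to 101 in controls, in libraries that read the 3' end of transcripts, which may lie outside the deleted part. Every Lhx8 direction below rests on the library names and turns round if the titles are used. At E18.5, replicates 1 and 2 of the knockouts, and replicates 1 and 2 of the controls, were near-identical pairs (chi-square per degree of freedom of 1.32 and 1.12, against 6.62 to 62.3 for the 22 other pairs within groups). Each pair was summed and counted as 1 sample, written replicate 1-2, which left 3 samples per group. Germ cell markers had counts for all 10 genes of the list in every library, and the granulosa markers were present except Fshr, at 0 in some libraries of both sets, and Foxl2, at 0 in some Lhx8-set libraries.

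Of the members tested at birth, Wee2 and Mos fell furthest, in both knockouts. The 2 knockouts may not be independent. At P0 Lhx8 stood at 52.2, 62.7 and 65.6 CPM in Figla knockouts, against 161, 144 and 196 in controls. Figla stood at 66.1, 74.9 and 42.5 CPM in Lhx8 knockouts, against 76.3, 119 and 89.7 in controls. The part of this in the shared falls was not tested. Wee2 encodes an oocyte kinase that places the inhibitory phosphate on CDK1. It lies on chromosome 6, 40439088 to 40466813 on the plus strand (GRCm38, as are all gene positions here). In Figla knockouts at P0 it had 0, 4 and 0 counts (0, 0.323 and 0 CPM), against 99, 92 and 167 counts (8.33, 8.41 and 12.5 CPM) in controls. The groups did not overlap, and 2 of 3 knockouts had no Wee2 read at all. In Lhx8 knockouts it had 2, 0 and 1 counts (0.208, 0 and 0.121 CPM), against 28, 28 and 50 counts (2.81, 2.91 and 5.56 CPM) in controls, again without overlap. The 2 promoters below are shown because Wee2 was the member with the largest fall and Gpr3, described further on, is the arrest receptor that fell in the Figla knockout. Capitals mark any of 4 motifs, namely the E-box CANNTG, the site type that bHLH factors such as FIGLA bind, and 3 motifs that LIM homeodomain factors can bind, which are the palindrome TAATTA with its variant TAATTG and the separate form TGATTG.
Wee2, plus strand, chr6:40442613-40442912: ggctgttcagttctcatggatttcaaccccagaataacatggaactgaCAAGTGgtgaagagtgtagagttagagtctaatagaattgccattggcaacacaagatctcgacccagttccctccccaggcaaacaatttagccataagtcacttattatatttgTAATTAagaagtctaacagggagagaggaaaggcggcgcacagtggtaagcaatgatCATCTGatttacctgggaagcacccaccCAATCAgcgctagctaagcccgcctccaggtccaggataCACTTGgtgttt
Gpr3, minus strand, chr4:133212487-133212786: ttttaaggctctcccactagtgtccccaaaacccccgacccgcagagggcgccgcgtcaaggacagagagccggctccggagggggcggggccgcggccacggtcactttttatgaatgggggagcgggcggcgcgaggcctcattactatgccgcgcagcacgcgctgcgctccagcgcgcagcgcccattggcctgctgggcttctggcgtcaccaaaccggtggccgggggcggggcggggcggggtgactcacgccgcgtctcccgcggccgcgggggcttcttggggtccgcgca
Both sequences are RefSeq promoters on GRCm38.p6, with 250 bases before the start site and 50 after it, read in the direction of the gene. The Wee2 window lies wholly inside the span of the gene in the authors' annotation, which starts further upstream, and 50 of its 300 bases are exonic there. It held E-boxes that begin at positions -202, -29 and 39 from the start site, TAATTA at -86, and TGATTG at -1, where the printed strand reads its complement. The Gpr3 window held none of the 4 motifs. Searched on both strands, CANNTG occurred in 72.3% of all 32851 promoters of this length, TAATTA in 5.29%, TAATTG in 8.0% and TGATTG in 14.04%, so an E-box is common in such windows. The median number of E-boxes over all promoters was 1. Promoters were found for 8 of the 10 members. Both Gpr12 windows held 3 E-boxes, the Adcy3 windows 0 and 2, Nppc 0, and Npr2, Cdc25b and Ccnb3 1 each. No link between motifs and a change in level was tested. Such letters describe the windows and say nothing of what binds there.

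At P0, 8 of the 10 members were tested in the Figla knockouts, of which 3 were lower and 2 were higher, and Gpr12 and Nppc had too few counts. Of all 17321 genes tested, 16.0% were called by edgeR's quasi-likelihood test at a Benjamini-Hochberg adjusted p under 0.05, 10.9% lower and 5.12% higher. Groups did not overlap for the same 3 members that were lower, against 20.3% of all genes lower without overlap, and for the same 2 that were higher, against 15.3%. Wee2 averaged 0.104 ± 0.181 CPM in Figla knockouts and 9.85 ± 2.51 in controls (SD, n = 3 each, here and for all P0 means), a log2 fold change of -6.28 (SE 0.61, edgeR adjusted p = 7.97e-05). Without knockout replicate 2, the only knockout with Wee2 reads, its log2 fold change was -9.82, a value that then depends on the prior count. Fewer oocytes and less of an RNA per oocyte cannot be told apart in whole ovaries, here or in the results that follow. Germ cell markers were lower for 5 of 10 genes in the same comparison, with a median log2 fold change of -0.41 over the list against 0.02 over all genes. Their summed level was 1620 to 1702 CPM in Figla knockouts against 1785 to 2324 in controls, and the part of this in the result was not tested.

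Mos encodes the kinase that drives the MAP kinase pathway of the metaphase II arrest. It lies on chromosome 4, 3870657 to 3872105 on the minus strand. In Figla knockouts at P0 it had 2 counts in each library (0.175, 0.162 and 0.197 CPM), against 28, 31 and 53 counts (2.36, 2.83 and 3.95 CPM) in controls. The 3 knockouts were alike and all far under the lowest control. Mos averaged 0.177 ± 0.0198 CPM in Figla knockouts and 3.09 ± 0.873 in controls, a log2 fold change of -4.06 (SE 0.45, edgeR adjusted p = 0.000198).

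Gpr3 encodes the constitutively active receptor that keeps oocyte cAMP high in the mouse. It lies on chromosome 4, 133209340 to 133212536 on the minus strand. At P0 it had 9, 2 and 3 counts (0.789, 0.162 and 0.295 CPM) in Figla knockouts, against 75, 33 and 47 counts (6.31, 3.02 and 3.51 CPM) in controls. The highest knockout stayed under the lowest control. Gpr3 averaged 0.419 ± 0.343 CPM in Figla knockouts and 4.31 ± 1.71 in controls, a log2 fold change of -3.35 (SE 0.52, edgeR adjusted p = 0.00175). In 1 model of all Figla samples the fold change was -3.35 too, but the adjusted p was 0.160 in that model, which also holds the E18.5 samples. Gpr3 shares 93 of its 2734 exon bases with Cd164l2 on the other strand, and strand was ignored in counting. Cd164l2 had 122 counts over the P0 Figla knockouts and 768 over the controls, and its part in the Gpr3 counts was not tested.

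Npr2 and Adcy3 moved the other way in Figla knockouts at P0. Npr2 encodes the guanylyl cyclase receptor of granulosa cells that makes the arresting cGMP when bound by C-type natriuretic peptide. It lies on chromosome 4, 43631935 to 43651244. Npr2 stood at 192, 194 and 171 CPM in Figla knockouts, against 130, 136 and 85.6 CPM in controls. Every knockout was above every control, and control replicate 3 was the lowest. The means were 185 ± 13.1 CPM in Figla knockouts and 118 ± 27.0 in controls, a log2 fold change of 0.65 (SE 0.16, edgeR adjusted p = 0.0183). Its call was lost without knockout replicate 1 (0.60, adjusted p = 0.0596) and without knockout replicate 2 (0.63, adjusted p = 0.0639), with the fold change about as large. Npr2 shares 266 of its 4667 exon bases with Gm12473 on the other strand, which had 508 counts over the P0 Figla knockouts and 316 over the controls, and its part was not tested.

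Adcy3 encodes an adenylyl cyclase that makes cAMP in mouse oocytes and in many other cells. It lies on chromosome 12, 4133103 to 4213525. It stood at 58.0, 53.5 and 52.7 CPM in Figla knockouts, against 30.8, 40.8 and 31.7 CPM in controls, without overlap. The means were 54.5 ± 4.09 CPM in Figla knockouts and 34.8 ± 5.84 in controls, a log2 fold change of 0.65 (SE 0.14, edgeR adjusted p = 0.0104). In 1 model of all Figla samples the log2 fold changes were almost the same, 0.64 for Npr2 (adjusted p = 0.0591) and 0.65 for Adcy3 (adjusted p = 0.0876), and neither was called. With only the libraries whose labels agree, Adcy3 was not called either (0.54, adjusted p = 0.0767). Adcy3 shares 1380 of its 6246 exon bases with Cenpo on the other strand, which had 501 counts over the Figla knockouts and 455 over the controls at P0. Markers of granulosa, stromal, endothelial and macrophage cells leaned the same way in these libraries, beside 5.12% of all genes called higher. Granulosa markers were higher for 2 of 9 tested (Fst and Kitl), with a summed level of 2472 to 2658 CPM in Figla knockouts against 1497 to 2023 in controls. Among them Foxl2 and Rspo1 had log2 fold changes of 0.04 and 0.01. Stromal markers were higher for 5 of 8, with 6277 to 7547 CPM against 4448 to 5445 in controls. Endothelial markers were higher for 4 of 6, with 420 to 494 CPM against 247 to 356 in controls, and macrophage markers for 1 of 5. Markers of red blood cell precursors were called for 0 of 6, with a median log2 fold change of -1.18. The part of these cells in the Npr2 and Adcy3 results was not tested.

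Pde3a, Cdc25b and Ccnb3 did not pass the test in Figla knockouts at P0. Pde3a encodes the phosphodiesterase that breaks down cAMP in the oocyte. It stood at 37.3, 53.0 and 38.5 CPM in Figla knockouts, against 39.6, 45.7 and 46.2 CPM in controls, with a log2 fold change of -0.06 (SE 0.15, edgeR adjusted p = 0.831). Cdc25b encodes the phosphatase that frees CDK1 of its inhibitory phosphate, and it is needed in mouse oocytes for meiosis to resume. It stood at 20.4, 31.3 and 32.0 CPM in Figla knockouts, against 17.1, 25.0 and 45.0 CPM in controls, and control replicate 3 was apart from the rest. Its log2 fold change was -0.09 (SE 0.31, edgeR adjusted p = 0.871), and 0.41 without control replicate 3 (adjusted p = 0.310). Ccnb3 encodes cyclin B3, which mouse oocytes need to leave metaphase I. It stood at 89.4, 74.3 and 68.4 CPM in Figla knockouts, against 143, 57.5 and 52.7 CPM in controls, and control replicate 1 was highest. Its log2 fold change was -0.13 (SE 0.31, edgeR adjusted p = 0.816), and 0.45 without control replicate 1 (adjusted p = 0.0723).

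Nppc encodes the precursor of C-type natriuretic peptide, the ligand of the Npr2 receptor, and Gpr12 a receptor related to Gpr3. Nppc had 3, 3 and 6 counts in Figla knockouts at P0, against 4, 4 and 3 in controls, so the ligand was near its detection floor while its receptor was the most abundant member. In the Lhx8 set Nppc had 2 counts over the 3 knockouts and 4 over the 3 controls. Gpr12 had 5 counts in all over the 14 Figla libraries, in 3 of them, and 3 counts over the 6 Lhx8 libraries, in 2 of them. No change in either gene was detectable at this depth at birth.

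**Figure D1:**
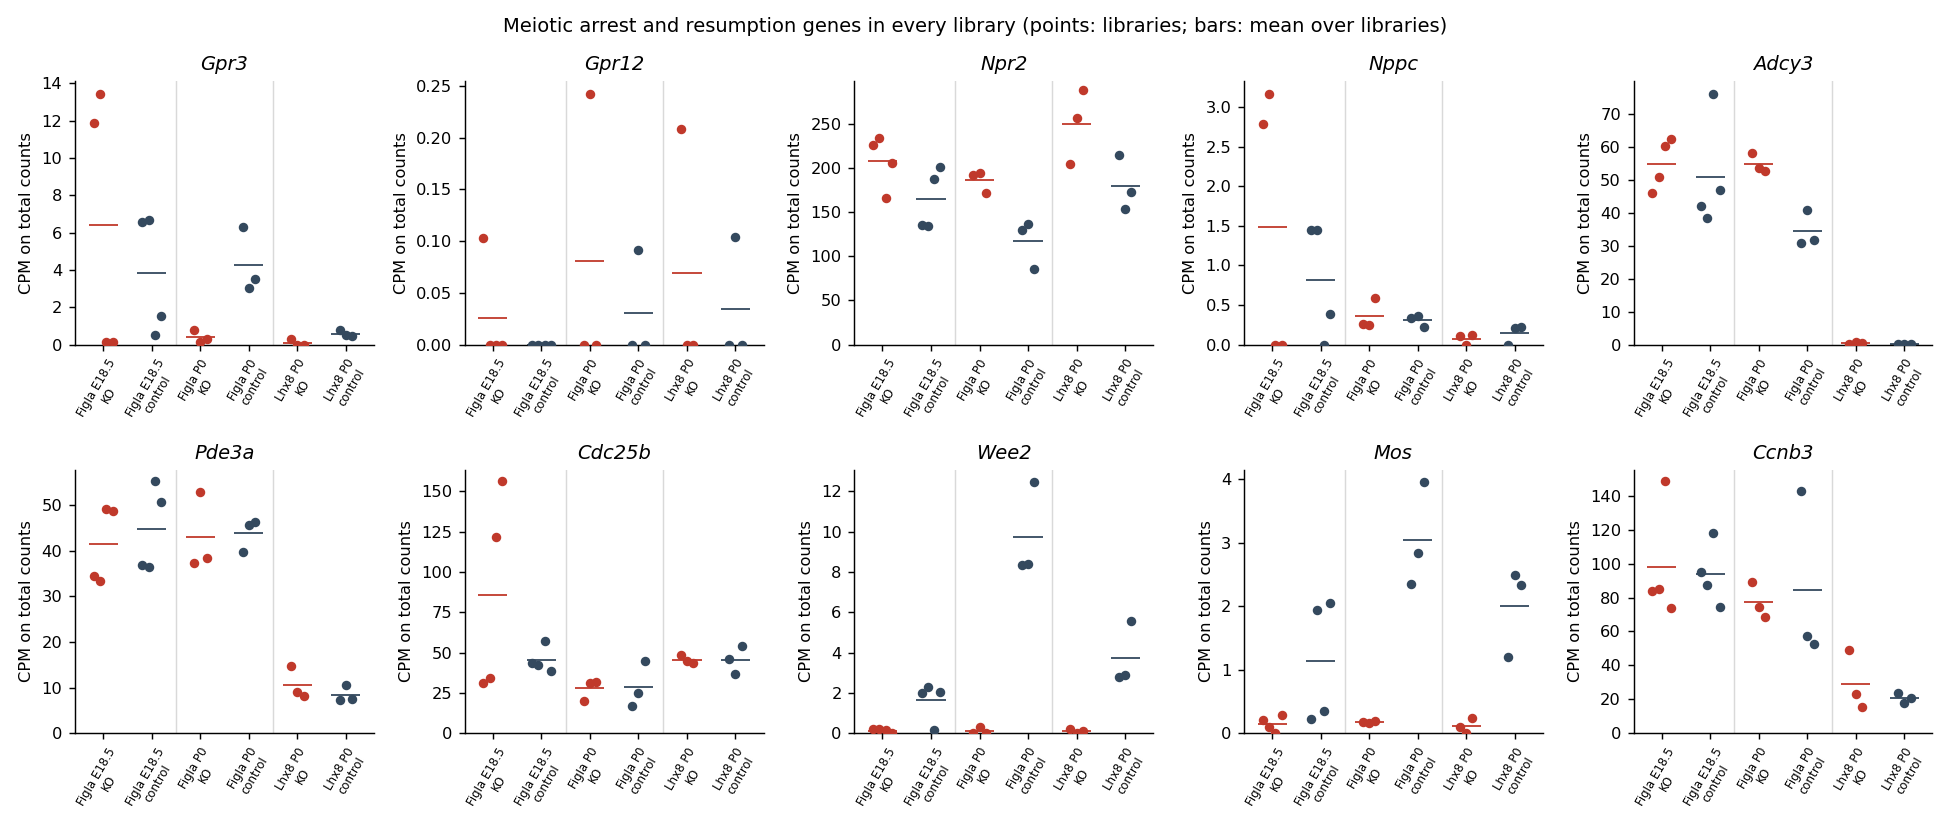
CPM on total counts (vertical axes) of the 10 genes in each of the 20 libraries, with knockouts (KO, red) left of their controls (dark) and a bar at the mean over libraries. Wee2 and Mos lay near 0 in every knockout library at P0, and the paired high and low points of Gpr3 and Nppc at E18.5 were replicates 1 and 2 against replicates 3 and 4.

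In Lhx8 knockouts at P0, 6 members were tested, of which 2 were lower and 0 higher. Of all 15274 genes tested, 10.4% were called, 7.29% lower and 3.06% higher, and 18.1% were lower and 15.6% higher without overlap of the groups. Wee2 averaged 0.106 ± 0.0987 CPM in Lhx8 knockouts and 3.84 ± 1.55 in controls (SD, n = 3 each), with an edgeR adjusted p of 0.00169. As the knockouts held 3 Wee2 counts in all, the change is given as the ratio of scaled counts, 0.0281 (95% counting interval 0.00571 to 0.0844). Mos had 1, 0 and 2 counts (0.104, 0 and 0.241 CPM) in Lhx8 knockouts, against 12, 24 and 21 counts (1.20, 2.49 and 2.33 CPM) in controls. The groups did not overlap, and the ratio was 0.0523 (95% counting interval 0.0105 to 0.161, edgeR adjusted p = 0.00828). Germ cell markers were lower for 3 of 10 genes in this comparison, with a summed level of 1643 to 2324 CPM in Lhx8 knockouts against 1854 to 2309 in controls, ranges that overlapped. The median log2 fold change of these markers was -0.15, against 0.05 over all genes. Their part in the Wee2 and Mos results was not tested.

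Gpr3 had too few counts for the test in the Lhx8 set. It had 3, 0 and 0 counts in Lhx8 knockouts, against 8, 5 and 4 counts in controls, and every knockout was under every control. The ratio of scaled counts was 0.175 (95% counting interval 0.0329 to 0.606), and with no filter on low counts the edgeR adjusted p was 0.288. The overlapping Cd164l2 had 67 counts over the Lhx8 knockouts and 1013 over the controls. Of the last 500 exon bases of Gpr3, the end that these 3' libraries read, 0 are shared with Cd164l2. Its part in the Gpr3 counts was not tested. Npr2 stood at 204, 256 and 288 CPM in Lhx8 knockouts, against 214, 153 and 172 CPM in controls, and the groups overlapped. Its log2 fold change was 0.42 (SE 0.19, edgeR adjusted p = 0.183). Stromal markers were higher for 5 of 8 in this set too, beside 3.06% of all genes called higher. Their summed level was 5268 to 6672 CPM in Lhx8 knockouts against 3581 to 4050 in controls. Granulosa markers were higher for 1 of 8 tested (Kitl), with 1752.5 to 1920.7 CPM in Lhx8 knockouts against 1409.7 to 1580.0 in controls. Endothelial markers were higher for 0 of 6 and macrophage markers for 0 of 5 tested. The part of these cells in the Npr2 values was not tested. Pde3a, Cdc25b and Ccnb3 had log2 fold changes of 0.27, -0.06 and 0.42, with edgeR adjusted p of 0.568, 0.834 and 0.442. Their groups overlapped, and Lhx8 knockout replicate 1 was the highest of the 6 libraries for both Pde3a (14.8 CPM) and Ccnb3 (49.0 CPM). Adcy3 had 14 counts over the Lhx8 knockouts and 5 over the controls, against 19 in all for a gene with 6384 counts in the Figla set. The last 500 exon bases of Adcy3, the end that these 3' libraries read, are all shared with Cenpo, and the part of that in its low count was not tested. Whether any member's effect differed between the 2 knockouts was not tested, since 1 kit reads whole transcripts and the other only their 3' ends. Lhx8 itself was lower in Figla knockouts at P0 (log2 fold change -1.50, SE 0.14, edgeR adjusted p = 5.42e-05). Figla was under every control in Lhx8 knockouts but was not called (-0.70, SE 0.21, edgeR adjusted p = 0.0632).

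**Figure D2:**
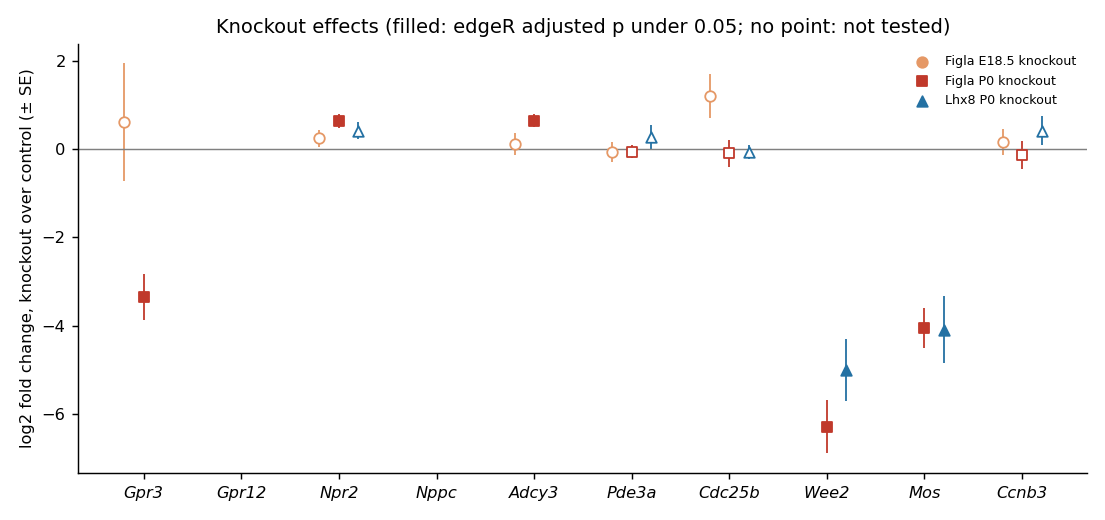
Log2 fold change of knockout over control (vertical axis, bars ± SE) for each gene in Figla knockouts at E18.5 (circles), Figla knockouts at P0 (squares) and Lhx8 knockouts at P0 (triangles), filled where the edgeR adjusted p was under 0.05 and left out where the gene was not tested. Wee2 and Mos fell in both P0 knockouts, with log2 fold changes of -6.28 and -4.06 in the Figla knockout, while Pde3a, Cdc25b and Ccnb3 passed the test nowhere.

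Before birth, at E18.5, Wee2, Mos, Nppc and Gpr12 did not pass the filter on low counts, and some libraries stood apart within their group. Of the 6 members tested, 0 passed edgeR's adjusted test and 1 had an unadjusted p under 0.05, and DESeq2 also called 0. Of all 16131 genes tested, 0.00620% were called, which is 1 gene, so a lack of calls among the members is no result about them. Groups did not overlap for 0 of the 6 members tested, against 3.94% of all genes lower and 3.40% higher. Wee2 had 2, 2, 1 and 0 counts (0.206, 0.192, 0.155 and 0 CPM) in Figla knockouts, against 18, 19, 1 and 16 counts (2.01, 2.30, 0.179 and 2.04 CPM) in controls. Only control replicate 3 lay within the knockouts, and it is also the control library with the lowest Figla level (3.94 CPM) and the fewest reads. Germ cell markers ran the same way, with sums of 1278, 1286, 1133 and 1279 CPM in Figla knockouts against 2082, 2123, 1273 and 1732 CPM in controls, and a list median of -0.43. Their part in the Wee2 and Mos counts was not tested. Wee2, which was not tested, had a ratio of scaled counts of 0.0863 (95% counting interval 0.0269 to 0.214). Its log2 fold change was -3.75 without control replicate 3 (edgeR adjusted p = 0.107) and -3.30 with no filter (adjusted p = 0.0816). Mos had 2, 1, 0 and 2 counts in Figla knockouts, against 2, 16, 2 and 16 in controls. Control replicates 1 and 2 gave 2 and 16 Mos counts although they were near-identical over all genes, and with them summed the knockouts lay under the controls. That order rests on 2 counts in control replicate 3 (0.358 CPM) against 2 in knockout replicate 4 (0.284 CPM), both under the level of 3 counts. Control replicate 1 alone (0.223 CPM) lay within the knockouts. The ratio of scaled counts of Mos was 0.129 (95% counting interval 0.0396 to 0.331). With no filter the log2 fold change of Mos was -2.82 (adjusted p = 0.215).

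Gpr3 and Nppc divided the E18.5 libraries by replicate number and not by genotype. Gpr3 had 115, 140, 1 and 1 counts (11.9, 13.4, 0.155 and 0.142 CPM) in Figla knockout replicates 1 to 4, against 59, 55, 3 and 12 counts (6.59, 6.66, 0.537 and 1.53 CPM) in control replicates 1 to 4. Both near-identical pairs were high, and the other libraries of both groups were low. Nppc had 27, 33, 0 and 0 counts in Figla knockout replicates 1 to 4, against 13, 12, 0 and 3 in control replicates 1 to 4, the same order. The log2 fold change of Gpr3 was 0.61 (SE 1.33, edgeR adjusted p = 1.00), and it was -4.24 without knockout replicate 1-2 (adjusted p = 0.636), so 1 sample set its direction. At this age the titles name all replicates 1 and 2 as controls and all replicates 3 and 4 as knockouts, so the divide also follows the titles. Grouped by title, Gpr3 had a log2 fold change of -3.95 (edgeR adjusted p = 0.0173) and Nppc one of -4.21 (edgeR adjusted p = 0.0350), in a grouping that called 6.46% of all genes. Its control group is only the near-identical pairs, each summed to 1 sample, which are the samples seen to be high in both genes. These p-values thus come from the libraries that showed the divide. With only the libraries whose title and library name agree, which leave control replicate 1-2 against knockout replicates 3 and 4, Gpr3 was called at -5.34 (adjusted p = 0.00284), beside 6.36% of all genes. That leaves 1 control sample, assumed to vary like the knockouts, and it is 1 of the samples high in Gpr3. The Figla level followed the library names in these libraries, as given above, with control replicate 3 the lowest control at 3.94 CPM. Lhx8 stood at 18.1, 18.3, 6.52 and 44.7 CPM in Figla knockout replicates 1 to 4. Control replicates 1 to 4 had 103, 88.7, 6.45 and 121 CPM of Lhx8. Control replicate 3, which its title names a knockout, was thus under every knockout in Lhx8, so its label is less certain. Stromal markers divided the same libraries the other way, with 4338 and 4394 CPM in knockout replicates 1 and 2 and 6640 and 6896 in knockout replicates 3 and 4, against 4048 and 4094 in control replicates 1 and 2 and 6832 and 7855 in control replicates 3 and 4. The part of tissue make-up or of handling in the divide was not tested.

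Cdc25b was the member with an unadjusted p under 0.05 at E18.5. Figla knockout libraries held 31.4, 34.4, 122 and 156 CPM of it, against 43.8, 42.4, 57.0 and 38.8 CPM in controls. Knockout replicates 3 and 4 were above all others, while knockout replicates 1 and 2 were under every control. Its log2 fold change was 1.20 (SE 0.50, edgeR adjusted p = 1.00), and it was called at 1.72 (adjusted p = 0.000845) with only the libraries whose labels agree, which keep knockout replicates 3 and 4. The 6 erythroid markers, which mark red blood cell precursors, summed to 249, 253, 1359 and 2034 CPM in Figla knockouts, against 369, 372, 342 and 217 CPM in controls, and were highest in the same 2 libraries. At P0 the same markers summed to 19.4, 210 and 157 CPM in Figla knockouts, against 18.4, 65.2 and 430 CPM in controls. In both Cdc25b and these markers, P0 control replicate 3 was the highest Figla-set library at P0. The part of the erythroid markers in the Cdc25b values was not tested. The 4 Figla knockouts had 226, 234, 165 and 206 CPM of Npr2, against 135, 134, 188 and 201 CPM in controls, with a log2 fold change of 0.24 (SE 0.19). Adcy3, Pde3a and Ccnb3 had log2 fold changes of 0.11, -0.07 and 0.16, with SE of 0.25, 0.22 and 0.30, and their groups overlapped. All of these had an edgeR adjusted p of 1.00.

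**Figure D3:**
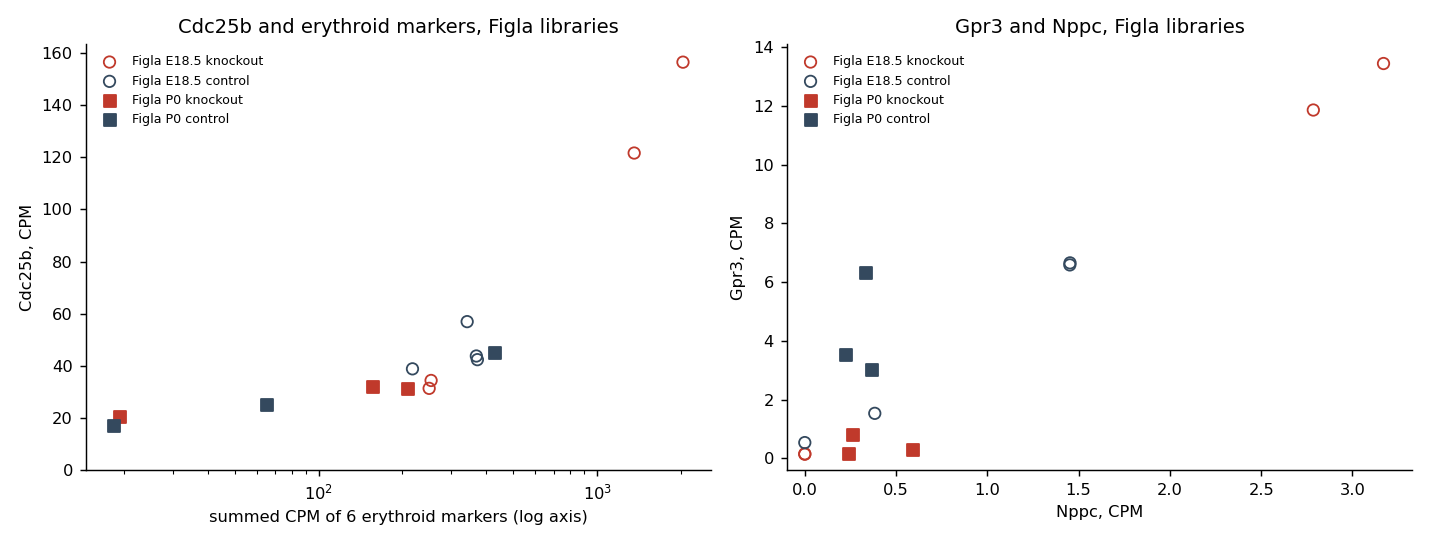
Left, Cdc25b CPM (vertical axis) against the summed CPM of 6 erythroid markers (log horizontal axis), and right, Gpr3 CPM against Nppc CPM, in the 14 Figla libraries (knockouts red, controls dark, E18.5 open circles, P0 filled squares). The 2 knockout libraries highest in Cdc25b (122 and 156 CPM) were highest in erythroid markers, and the 4 libraries highest in Nppc were the near-identical E18.5 pairs.

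The change with age was tested in the same Figla set. The Figla effect at P0 minus that at E18.5 was called for 0 of 8 members tested by edgeR, with 1 at an unadjusted p under 0.05, and for 0 by DESeq2. Over all 18379 genes 0% were called. The difference was -3.94 for Gpr3 (SE 1.72, adjusted p = 0.913), -2.94 for Wee2 (SE 1.51, adjusted p = 0.913) and -1.29 for Cdc25b (SE 0.66, adjusted p = 0.913). Gpr3 being called at P0 and not at E18.5 is therefore not shown to be a difference between the ages, and without E18.5 knockout replicate 1-2 its difference was 0.95. In controls, P0 against E18.5 was called by edgeR for 0 of 8 members, with 4 at an unadjusted p under 0.05, and again for 0% of all genes. Wee2 averaged 10.1 ± 2.60 CPM in P0 controls and 1.43 ± 1.09 in E18.5 controls (SD over 3 samples in each), a log2 difference of 2.69 (SE 0.61, adjusted p = 0.0610). DESeq2 called Wee2 alone among the members, with a log2 difference of 2.78 (adjusted p = 0.000590), in a comparison where it called 8.79% of all genes. Mos averaged 3.15 ± 0.903 CPM in P0 controls and 1.13 ± 0.835 in E18.5 controls, with a log2 difference of 1.45 (SE 0.49, adjusted p = 0.114). Npr2 and Adcy3 had log2 differences of -0.49 (SE 0.19, adjusted p = 0.149) and -0.57 (SE 0.21, adjusted p = 0.143). The 2 comparisons in this paragraph share their control samples with the knockout comparisons.

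Levels of different genes were compared per length, as TPM, which divides counts by gene length before scaling to a common total, in the Figla set only. In Figla knockouts at P0 the order was Npr2 (116 TPM), Ccnb3 (49.1), Adcy3 (25.5), Cdc25b (22.0), Pde3a (9.88), Nppc (1.02), Gpr3 (0.428), Mos (0.357), Wee2 (0.106) and Gpr12 (0.0991). In P0 controls it was Npr2 (72.4 TPM), Ccnb3 (54.0), Cdc25b (22.5), Adcy3 (15.9), Pde3a (9.94), Wee2 (8.98), Mos (6.08), Gpr3 (4.57), Nppc (0.854) and Gpr12 (0.0334). In these controls the ranges overlapped between neighbours from Npr2 to Adcy3 and from Pde3a to Gpr3. They did not overlap between Adcy3 (14.8 to 17.9 TPM) and Pde3a (9.31 to 10.7 TPM), nor between Gpr3 (3.03 to 6.91 TPM) and Nppc (0.630 to 0.966 TPM), nor between Nppc and Gpr12. Wee2 and Mos stood above Nppc in P0 controls and had lower mean TPM than Nppc in Figla knockouts. The order is given as a description, with no test.

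Genes whose profile was most like that of a called member were named by the highest Pearson correlation of log2(CPM + 1) over the 12 Figla samples, among the 18378 other genes tested. They are a description, as the points share libraries and the knockout effect. For Wee2 they were Mep1b (r = 0.993), Ucma (0.990) and Khdc1b (0.987), and for Mos they were Ung (0.994), Ppm1h (0.993) and Ryr3 (0.992). For Gpr3 they were Gm14226 (0.962), Vdac2 (0.960) and Larp7 (0.950). For Npr2 they were Plod3 (0.945), Emp3 (0.944) and Adam15 (0.940), and for Adcy3 they were Ret (0.967), Srgap3 (0.951) and Fbxl16 (0.951).

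The other genes of the pathway fell into 3 lists. Of 31 tested genes of cyclic nucleotide signalling, 1 was lower and 4 were higher in Figla knockouts at P0, with a median log2 fold change of 0.19 against 0.02 over all genes. These 5 calls together are close to the 16.0% called among all genes, so their count says nothing particular to the list. By direction, 10.9% of all genes were called lower and 5.12% higher, and a tilt of the list was not tested. The called genes of the list are given as values. Pde7b, a cAMP phosphodiesterase, was higher by 0.79 on the log2 scale (SE 0.16, edgeR adjusted p = 0.00652). Rgs2, a regulator of G protein signalling, Npr1, the receptor for atrial natriuretic peptide, and Gnas, the alpha subunit of Gs, were higher by 0.51, 0.48 and 0.38. Akap1, which anchors protein kinase A at mitochondria, had a log2 fold change of -0.46 (SE 0.10, edgeR adjusted p = 0.0123). In Lhx8 knockouts 0 of 30 tested genes of this list passed edgeR's adjusted test, against 10.4% of all genes called, with a median of 0.13 against 0.05 over all genes.

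Of 17 tested genes that control CDK1, 7 were lower and 0 higher in Figla knockouts at P0, with a median log2 fold change of -0.50, beside 10.9% of all genes called lower and a median of 0.02. The 5 with the largest change were Cks2, a small subunit that binds CDK1 and is needed in mouse meiosis (-1.21), the cell division kinases Plk1 (-0.96) and Aurka (-0.85), and Pkmyt1 (-0.71) and Wee1 (-0.68), which phosphorylate CDK1 at inhibitory sites. Inhibitors and activators of CDK1 were both among the lower genes. In Lhx8 knockouts 2 of 16 were lower and 0 higher, a count near the background of 7.29% lower among all genes. These were Cks2 (-0.99, SE 0.19, edgeR adjusted p = 0.0110) and Plk1 (-0.85, SE 0.13, edgeR adjusted p = 0.00290).

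Of 24 tested genes of metaphase II arrest and of the anaphase-promoting complex, 7 were lower and 0 higher in Figla knockouts at P0, with a median log2 fold change of -0.16, beside 10.9% of all genes called lower. Fbxo43 encodes the inhibitor of that complex which holds eggs at metaphase II, and its log2 fold change was -2.01 (SE 0.29, edgeR adjusted p = 0.00104). Ube2c, the ubiquitin-conjugating enzyme of the complex, had a log2 fold change of -1.99 (SE 0.31, edgeR adjusted p = 0.00169). Espl1, the separase that cuts cohesin, Bub1, a spindle checkpoint kinase, and Fzr1, an activator of the complex, had values of -1.06, -0.85 and -0.75. In Lhx8 knockouts 5 of 24 were lower and 0 higher, beside 7.29% of all genes called lower, namely Ube2c (-1.66), Espl1 (-0.95), the checkpoint kinase Ttk (-0.79), Fzr1 (-0.71) and the MAP kinase kinase Map2k2 (-0.52). Fbxo43 had a log2 fold change of -1.75 there (SE 0.51, edgeR adjusted p = 0.0569), named after its value was seen. Dividing somatic cells use many genes of the last 2 lists, and the part of those cells in the counts was not tested. At E18.5, 0 genes of the 3 lists passed edgeR's adjusted test in Figla knockouts, with medians of 0.05, 0.11 and 0.05 against 0.01 over all genes.

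**Figure D4:**
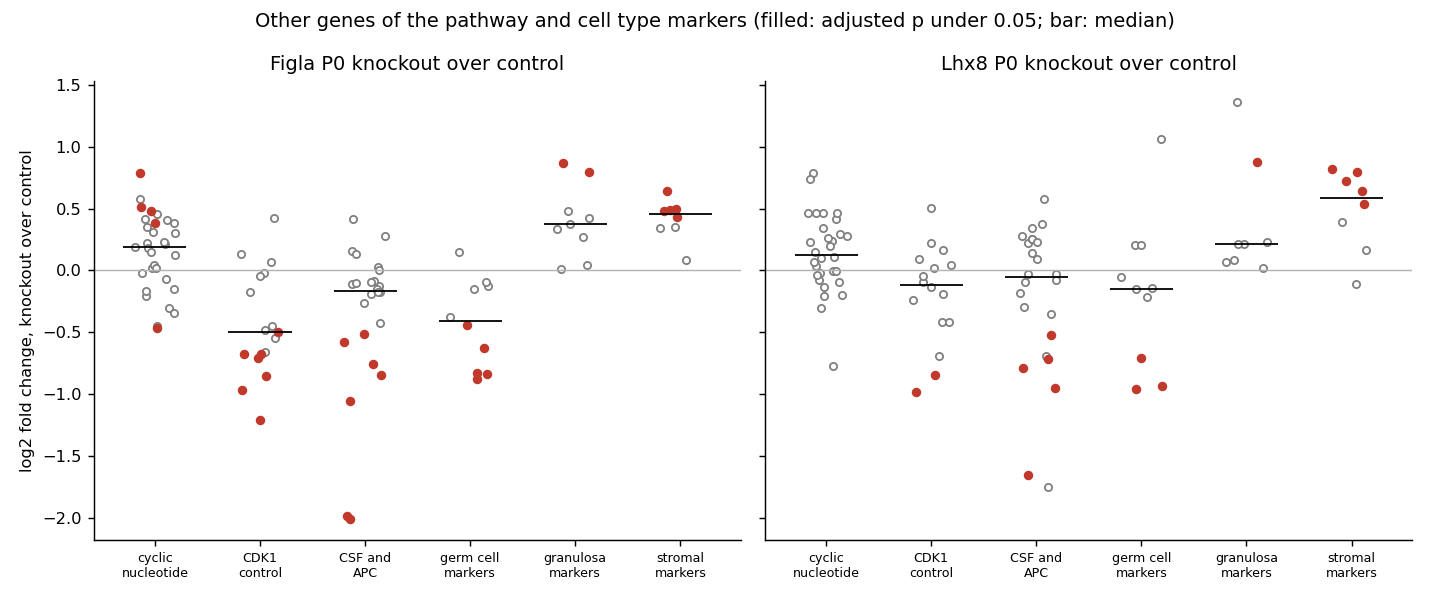
Log2 fold change of knockout over control (vertical axis) of each tested gene of the 3 pathway lists and of germ cell, granulosa and stromal markers, in Figla knockouts (left) and Lhx8 knockouts (right) at P0, filled red where the edgeR adjusted p was under 0.05, with a bar at the median of each list. In the CDK1 list 7 of 17 genes were lower in Figla knockouts (10.9% of all genes) and 2 of 16 in Lhx8 knockouts (7.29% of all genes), with 0 higher in either.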

How the data were processed

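Messenger RNA of whole ovaries was sequenced in 20 libraries. Per the labels' protocols, a Nextera kit on full-length cDNA served for the Figla set and a QuantSeq 3' kit for the Lhx8 set. The submitters' processing notes name cutadapt and HISAT2, with versions not given in the sources used here, and the build GRCm38.p5. The authors deposited raw counts of reads per gene. Per the file headers these came from featureCounts 1.6.0 with the GENCODE M12 annotation and ignored strand, so reads of overlapping genes on opposite strands cannot be told apart. Levels are CPM on the total count for single libraries and on TMM-scaled sizes for means, and TPM uses the deposited gene length.

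Counts were tested with edgeR 4.0.16 in R 4.3.3 (filterByExpr with minimum count 10 and total 15, TMM scaling, quasi-likelihood test, Benjamini-Hochberg adjustment over all genes, threshold 0.05). Each knockout was set against its controls in a model of its own, and the age comparisons used 1 model of all Figla samples. A ratio of scaled counts with its exact 95% interval is given for Wee2, Mos and Gpr3 in the Lhx8 set, and for Wee2 and Mos at E18.5. Other members that were not tested are given as counts. The fits were also run on counts simulated from the spread that the same models had estimated. Such counts cannot speak to the label conflicts or the near-identical libraries. Alternatives were RLE scaling, no filter, DESeq2 1.42.0, leaving out each sample, other groupings and, in the Lhx8 set, the replicate numbers as a block. The Figla library names number libraries singly and give no replicate number shared by the groups, so the replicate numbers used here for that set pair nothing. The members, lists, tests and the treatment of the near-identical libraries were chosen with earlier results of these data known. Genes named are the 10 members, Figla and Lhx8, the called genes of each pathway list (at most 5, by size of change) and the 3 genes most like each called Figla member. The labels do not say which libraries came from separate animals, so the spread behind each p-value is that of these samples and may be technical.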

Additional observations from a re-analysis of the deposited data

How the results depend on the processing

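With the library names as groups, the falls of Wee2 and Mos at P0 passed the test in every alternative run in both knockouts. The fall of Gpr3 in Figla knockouts did so in all but 1 model of all Figla samples. In that model 2 members and 1363 genes were called at P0, and 53 genes at E18.5. Of 82 values of called members under an alternative, 69 kept direction and call, 10 lost the call and 3 turned sign, and of 377 values of members not called, 327 kept both, 4 gained a call and 46 turned sign. The cause was not tested for any of these.

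Grouping changed most. Grouped by title, 3 members (Gpr3, Nppc and Pde3a) and 1093 genes were called at E18.5, 0 members and 0 genes by edgeR at P0 in the Figla set (1 and 507 with an unadjusted p under 0.05), and the Lhx8 set turned sign throughout. The log2 fold changes by title that turned sign were -3.954 for Gpr3 and 0.5284 for Pde3a at E18.5, and -0.05626 for Npr2, 0.1452 for Pde3a and 0.7784 for Cdc25b at P0. In the Lhx8 set they were 5.0 for Wee2, 4.088 for Mos, -0.4169 for Npr2, -0.2678 for Pde3a, 0.06212 for Cdc25b and -0.4164 for Ccnb3. With only libraries whose labels agree, 2 members (Gpr3 and Cdc25b) and 1082 genes were called at E18.5, and 4 members (without Adcy3) and 1835 genes at P0. Values that turned sign there were -5.339 for Gpr3, which passed the test, and 0.4473 for Pde3a at E18.5, and 0.06862 for Pde3a and 0.5561 for Cdc25b at P0. At E18.5, 18 genes were called without both samples numbered 3 (Ccnb3 -0.05576) and 24 without both near-identical pairs, a choice made after seeing the data (Npr2 -0.01354).

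With no count filter, 229 genes were called at E18.5, 2682 in the Lhx8 set, 63 for the difference between ages in the Figla effect (Pde3a -0.01514) and 1252 for age in controls, with 1 member (Pde3a 0.03723). DESeq2 called 78 genes at E18.5, 3 for the difference in effect, and 1616 with 1 member for age in controls. With each library as its own sample, 34 genes were called at E18.5 and 1490 with 1 member for age in controls (Pde3a 0.04731). No pairing by replicate number was detected in the Lhx8 set (correlations of same-numbered deviations -0.154, 0.0471 and 0.0381). Differently numbered pairs ran from -0.167 to 0.127, and 3 samples a group cannot exclude a pairing. With the replicate block 2 members and 931 genes were called.

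Leaving out 1 sample at a time gave 0 to 89 genes at E18.5 (89 without control replicate 3), 1423 to 2882 in the Figla set at P0, 630 to 1490 in the Lhx8 set and 0 to 556 for age in controls. At E18.5 the log2 fold change then ranged from -4.238 to 2.152 for Gpr3, -0.06212 to 0.4342 for Adcy3, -0.2236 to 0.09666 for Pde3a and -0.2286 to 0.3546 for Ccnb3. In the Figla set at P0 it ranged from -0.3536 to 0.4479 for Ccnb3, -0.2165 to 0.01603 for Pde3a and -0.3847 to 0.4061 for Cdc25b. In the Lhx8 set it ranged from -0.00177 to 0.4575 for Pde3a, -0.1204 to 0.694 for Ccnb3 and -0.2057 to 0.06198 for Cdc25b. For the difference in effect between ages it ranged from -5.493 to 0.9518 for Gpr3, -0.1462 to 0.1777 for Pde3a and -0.5333 to 0.3023 for Ccnb3, and for age in controls from -0.1782 to 0.08499 for Pde3a and -0.6722 to 0.1529 for Ccnb3.

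With 3 samples a group, and counts under 3 in some libraries, changes of Gpr12 and Nppc at birth were near the limit of detection. At E18.5 Wee2 had 5 counts over the Figla knockouts against 54 over the controls, and Mos had 5 against 36. Neither passed the filter on low counts there, and neither was called by edgeR without it.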
